A study of Mus musculus with 16 samples.

Results

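The livers described here came from 6 male mice that carried floxed alleles of Cdh1, the gene for the epithelial adhesion protein E-cadherin, and no Cre recombinase (genotype fl/fl at Cdh1, wt/wt for the Cre transgene, transgene label cdh1albcre). They were chosen by that genotype label and by age, 3 mice at 3 weeks and 3 mice at 6 weeks, out of 16 samples in the series. The other 10 samples were 2 control mice at 1 week and 8 Cre-carrying mice (fl/fl, +/wt) at 1 week (2 mice), 3 weeks (3 mice) and 6 weeks (3 mice). All groups were male, shared the floxed alleles and standard chow, and had food withdrawn for 6 hours before a middle portion of the left lobe was sampled. Each piece gave total RNA for a 1-colour Agilent array, so 1 mouse stands behind each array. The labels name the ages and do not mention weaning or puberty, and no unfloxed or female liver was part of the study. The controls therefore show the age change of floxed male liver only.

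Mouse liver becomes sexually dimorphic around puberty. In males, growth hormone reaches the liver in pulses that activate the transcription factor STAT5b, and androgen helps to set that pattern. Male-biased genes such as the major urinary proteins are then switched on, while female-biased genes such as Sult2a1 and Hao2, which immature males also express, are switched off. Over the same weeks hepatocytes stop dividing, and a network of imprinted and fetal growth genes, among them Igf2, Meg3 and Cdkn1c, is silenced as body growth slows.

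Promoter windows were searched for motifs known from these gene groups. RefSeq start sites in assembly GRCm38.p6 gave the 250 bases before the start of 13735 tested genes, and 3 motifs were searched on both strands. CCAAT is the core of the site bound by NF-Y, and TTTGAA is the core of the cell cycle homology region that the DREAM complex binds. The palindrome bound by STAT5 is TTCNNNGAA. CCAAT was found in 24 of 32 S phase and mitosis genes with a window (75%), against 39.6% of all tested genes and 33.8% of 32851 windows. The share with TTTGAA was 31.2% (10 of 32 genes), against 14.5% of tested genes and 16% of windows, and it was 27.8% (5 of 18 genes) in the male-biased and again in the female-biased list. TTCNNNGAA was found in 4 of 18 female-biased genes (22.2%) and 2 of 18 male-biased genes (11.1%), against 7.56% of tested genes and 7.02% of windows. CCAAT and TTTGAA overlapped each other in 40 windows (0.122%). A match is a description of the letters and not of binding. The Ccnb2 and Cdc20 windows are shown because both genes fell steeply and hold CCAAT as well as TTTGAA. Those of A1bg and Slc22a26 are shown because both are female-biased genes that fell and hold TTCNNNGAA. Capitals mark CCAAT and TTTGAA in the Ccnb2 and Cdc20 windows, and only TTCNNNGAA in those of A1bg and Slc22a26. The Slc22a26 window also holds CCAAT on its other strand, left in small letters. Each sequence runs 5′ to 3′ on its gene's strand, which is the minus strand in all 4.

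The Ccnb2 window is chr9:70421555-70421804, with CCAAT 87, 54 and 21 bases and TTTGAA 167 bases before the start. The Cdc20 window is chr4:118437344-118437593, with CCAAT 53 and 8 bases and TTTGAA 18 bases before the start. The A1bg window is chr15:60921271-60921520, with TTCNNNGAA 84 bases before the start. The Slc22a26 window is chr19:7802668-7802917, with TTCNNNGAA 141 bases before the start.
Ccnb2: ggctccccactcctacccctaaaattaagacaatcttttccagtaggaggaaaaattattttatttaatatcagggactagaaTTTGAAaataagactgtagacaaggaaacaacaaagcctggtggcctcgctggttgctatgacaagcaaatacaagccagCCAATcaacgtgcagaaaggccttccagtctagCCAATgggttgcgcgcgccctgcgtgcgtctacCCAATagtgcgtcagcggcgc
Cdc20: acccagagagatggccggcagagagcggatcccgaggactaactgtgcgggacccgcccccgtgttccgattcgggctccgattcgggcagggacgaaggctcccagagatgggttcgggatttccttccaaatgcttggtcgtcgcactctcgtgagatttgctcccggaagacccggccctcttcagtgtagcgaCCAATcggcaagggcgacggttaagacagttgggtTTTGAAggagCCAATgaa
A1bg: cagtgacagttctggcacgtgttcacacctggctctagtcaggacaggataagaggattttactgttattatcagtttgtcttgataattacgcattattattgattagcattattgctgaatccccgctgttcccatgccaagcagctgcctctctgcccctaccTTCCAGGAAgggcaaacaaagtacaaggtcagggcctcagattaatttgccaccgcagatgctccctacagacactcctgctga
Slc22a26: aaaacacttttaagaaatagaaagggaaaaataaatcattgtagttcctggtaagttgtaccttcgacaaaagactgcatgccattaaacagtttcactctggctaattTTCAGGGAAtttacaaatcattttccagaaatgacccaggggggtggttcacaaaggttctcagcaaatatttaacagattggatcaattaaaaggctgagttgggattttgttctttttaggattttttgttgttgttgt

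Levels are log2 signals minus the array's own 75th percentile, so 0 is the level of a probe at that percentile, and values can be compared between mice for 1 gene but not between genes. The 75th percentile itself was 568–696 signal units at 3 weeks and 485–603 at 6 weeks, and 71.2–72.8% and 66.9–71.6% of probes were well above background. Correlations between control arrays were 0.990–0.994 within an age and 0.970–0.981 between ages. The floxed gene Cdh1 stood at 0.69, 0.59 and 0.76 at 3 weeks and at 1.00, 0.59 and 0.43 at 6 weeks, a difference of -0.01 ± 0.35, and no Cre-carrying liver of these ages exceeded -0.60. At each age 1 control array lay on the first slide and 2 on the second. Mice 1 and 2 of each age came from 1 litter and mouse 3 from another, taken here from the shared first part of their titles, and no litter held both ages, so age and litter cannot be told apart in these 6 mice. P-values measure the spread between these mice.

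Between 3 and 6 weeks, 3831 of 17313 tested genes (22.1%) changed at an adjusted p under 0.05, 1688 higher (9.75%) and 2143 lower (12.4%) at 6 weeks. Adjusted p-values throughout are limma's, with Benjamini-Hochberg adjustment over all tested genes. Fitted on the 6 control arrays alone, 3136 genes were called. At least 2-fold changes were seen for 390 of the genes that rose and 683 of those that fell. The median change of all tested genes was -0.02 on the log2 scale. The values of the 2 ages did not overlap for 7312 genes (42.2%). Of the called genes, 150 were not well above background on any 6-week control array and 33 on no 3-week one. For these a fold is given as a bound, "at least", computed from the brighter age's mean against a dim-age mean that takes, on each array, the higher of the gene's own signal and the dimmest signal that still counted as well above background. In whole liver, fewer cells of a type and less RNA per cell cannot be told apart.

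**Figure D1:**
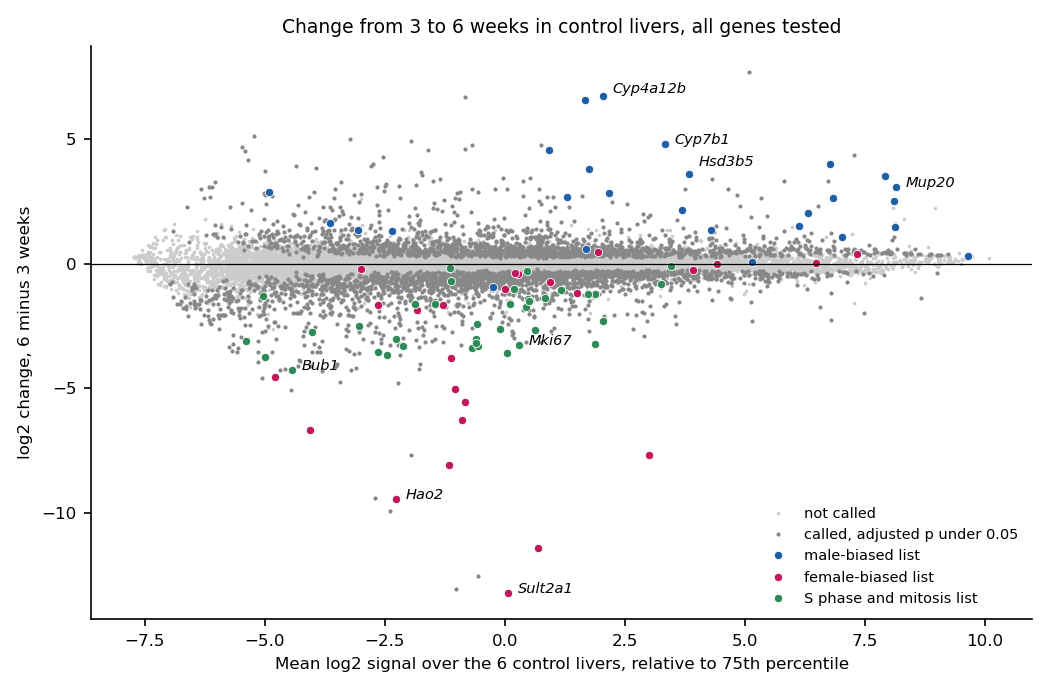
Log2 change from 3 to 6 weeks in control livers (vertical axis, 6 weeks minus 3 weeks) against the mean log2 level over both ages (horizontal axis, relative to each array's 75th percentile), 1 point per tested gene, with called genes darker and the sex-biased and cell division lists coloured. The female-biased genes Sult2a1 and Hao2 lie at -13.24 and -9.47, and the male-biased Cyp4a12b lies at 6.76.

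Male-biased hepatocyte genes rose together by 6 weeks. Of 27 measured members, 21 rose and none fell at the adjusted threshold, against 9.75% of all tested genes called higher, and the median change was 2.52 on the log2 scale. The groups did not overlap for 23 of the 27, beside 42.2% of all tested genes. The change was present on each slide, with list medians of 2.37 on the first and 2.31 on the second.

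The cytochrome P450 4a fatty acid hydroxylases of the male liver rose most. Cyp4a12b stood at -0.94, -2.44 and -0.65 in the 3-week mice and at 5.44, 5.39 and 5.43 in the 6-week mice, a rise of 6.76 ± 0.38 (SE, n = 3 mice per age; adjusted p = 3.47e-07), or 108-fold. Every 6-week value lay far above every 3-week value, and the 6-week mice had an SD of 0.029. Its close relative Cyp4a12a rose by 6.60 ± 0.40 (adjusted p = 6.35e-07), and the probes of such close relatives can share signal. Cyp7b1, an oxysterol and androgen hydroxylase, went from 0.55, 0.36 and 1.87 to 5.80, 5.14 and 6.34, a rise of 4.83 ± 0.59 (adjusted p = 0.000131). Hsd3b5, a male-specific member of the 3-beta-hydroxysteroid dehydrogenase family, went from 1.45, 0.11 and 4.52 to 6.30, 5.57 and 5.09, a rise of 3.62 ± 1.11 (adjusted p = 0.0336). Its ages did not overlap, but 3-week mouse 3 stood close to the adult mice. Without that mouse the rise was 4.87 (adjusted p = 0.00642), and without 3-week mouse 2 it was 2.67 (adjusted p = 0.132). The call was also lost without 3-week mouse 1 and without each 6-week mouse in turn, at adjusted p-values of 0.0577 to 0.101.

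Major urinary proteins, pheromone carriers that the male liver secretes into urine, had signal at 3 weeks that differed widely between mice. Mup20, which encodes the male pheromone darcin, stood at 6.65, 4.78 and 8.38 at 3 weeks and at 9.54, 9.60 and 9.96 at 6 weeks, a rise of 3.10 ± 0.71 (adjusted p = 0.00848). The 6-week mice lay close together, while the 3-week mice were spread and all lower. Mup21 rose from 4.82, 2.64 and 6.83 to 8.60, 8.61 and 9.12, by 4.01 ± 0.87 (adjusted p = 0.00631). Mup2 rose from 6.67, 3.23 and 8.58 to 9.54, 9.69 and 9.86, by 3.54 ± 1.15 (adjusted p = 0.0436), and Mup3 rose by 2.52 ± 0.80 (adjusted p = 0.0408). Both ages of each gene were separate, and for Mup20, Mup21 and Mup2 the 3-week mice were the more spread. Without 3-week mouse 2 the changes were 2.19 for Mup20, 2.95 for Mup21, 2.07 for Mup2 (adjusted p = 0.155) and 1.65 for Mup3 (adjusted p = 0.157). Without 3-week mouse 3 they were 3.99, 5.05, 4.75 and 3.35. Mup2 and Mup3 also lost their calls without 3-week mouse 1 and without each 6-week mouse. In the whole family, named after the values were seen, 6 of 10 measured Mup genes rose, beside 9.75% of all tested genes called higher. The 10 differences ran from 1.64 to 4.37. Mup probes can share signal between near-identical genes.

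Further male-biased genes for enzymes and secreted proteins rose. The complement component C6 went from -0.06, -0.41 and 0.04 to 4.02, 3.25 and 3.73, a rise of 3.81 ± 0.22 (adjusted p = 4.87e-07) with little spread at either age. Elovl3, a fatty acid elongase, rose from -1.91, -1.72 and -0.49 to 3.38, 3.02 and 3.22, by 4.58 ± 0.74 (adjusted p = 0.00106). The glutathione transferases Gstp1 and Gstp2 rose by 2.64 ± 0.28 and 1.49 ± 0.23, and the testosterone hydroxylase Cyp2d9 by 2.03 ± 0.32. Smaller rises were called for Susd4 (2.68), Nudt7 (1.50), Cyp2u1 (1.36), Ugt2b1 (1.35), Cspg5 (1.33), Ugt2b38 (1.07) and Serpina1e (0.31). The rise of Serpina1e lost its call under 8 of 17 alternatives, among them leaving out 3-week mouse 1 (adjusted p = 0.0893), 3-week mouse 2 (0.0899), 6-week mouse 2 (0.0647) or 6-week mouse 3 (0.108). Serpina12, the adipokine vaspin, rose by 2.88 (adjusted p = 0.0292), and the call was lost without 3-week mouse 1 (2.89, adjusted p = 0.0723), 3-week mouse 2 (2.18, adjusted p = 0.117) or 6-week mouse 1 (2.30, adjusted p = 0.112). Without 3-week mouse 3 the changes of Susd4 and Serpina12 were 3.53 and 3.57.

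For 6 listed genes the difference did not pass the threshold. The organic anion transporter Slco1a1 stood at 1.04, -2.03 and 3.26 at 3 weeks and 3.87, 3.74 and 3.21 at 6 weeks, a difference of 2.85 ± 0.99 (adjusted p = 0.057), and 3-week mouse 3 was already within the 6-week range. Without that mouse the difference was 4.10 (adjusted p = 0.00533), and without 3-week mouse 2 it was 1.46 (adjusted p = 0.186). Bcl6, a repressor of female-biased genes, overlapped between ages at 0.56, 0.55 and 3.05 against 2.00, 3.50 and 0.51. The remaining uncalled members were Serpina4-ps1 (2.15, adjusted p = 0.132), Moxd1 (1.63, adjusted p = 0.109, with 6-week mouse 3 alone at -0.58, 0.51 with adjusted p = 0.299 without that mouse, and 2.43 with adjusted p = 0.0194 without 6-week mouse 2), Egfr (0.08) and Serpina9 (-0.93), the only member with a lower mean at 6 weeks.

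**Figure D2:**
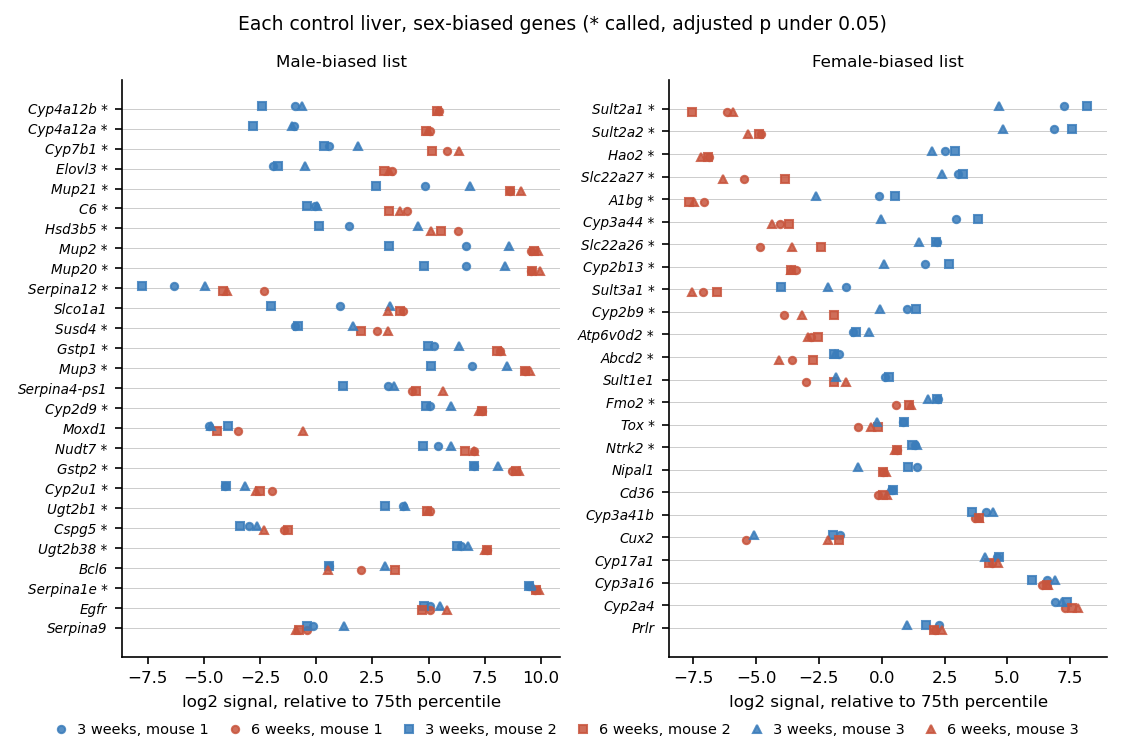
Log2 level of measured male-biased and female-biased genes in each control mouse at 3 and 6 weeks (horizontal axis, relative to the array's 75th percentile), with an asterisk beside genes called between the ages. Male-biased genes sit to the right and female-biased genes to the left at 6 weeks, and 3-week mouse 3 lies nearest the 6-week mice for many genes.

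Female-biased genes fell over the same interval, several of them to background. Of 25 measured members, 16 fell and none rose, against 12.4% of all tested genes called lower, and 22 had a lower mean at 6 weeks. The median change was -1.66 on the log2 scale. It was -3.15 on the first slide and -1.55 on the second. The groups did not overlap for 16 members, beside 42.2% of all tested genes.

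Sulfotransferases of the Sult2a cluster, which sulfate bile acids and steroids, lost the most signal. Sult2a1 stood at 7.24, 8.17 and 4.65 at 3 weeks and at -6.17, -7.57 and -5.91 at 6 weeks, where it was not well above background in any mouse. The change was -13.24 ± 0.76 (adjusted p = 4.26e-07), at least 4779-fold lower. It was -9.63 after normexp background correction, -14.25 without 3-week mouse 3 and -12.49 without 3-week mouse 2. Sult2a2 went from 6.84, 7.55 and 4.81 to -4.82, -4.90 and -5.32, a change of -11.41 ± 0.59 (adjusted p = 2.06e-07), and was -12.21 without 3-week mouse 3. In the whole cluster, named after the values were seen, 5 of 7 measured Sult2a genes fell and 1 rose. Of all tested genes 12.4% were called lower and 9.75% higher. Sult2a4, Sult2a6 and Sult2a3 were at least 2152-fold, 2439-fold and 187-fold lower, and cross-hybridisation between these relatives is possible. Leaving out 3-week mouse 3 or 3-week mouse 2 gave -14.17 or -12.30 for Sult2a4, -13.63 or -11.77 for Sult2a6 and -10.51 or -8.58 for Sult2a3. Sult3a1 fell by 4.54 on the log2 scale, at least 8.04-fold, and the change was -5.29 without 3-week mouse 2.

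Enzymes of oxidation followed the same course. Hao2, a peroxisomal hydroxyacid oxidase, stood at 2.53, 2.91 and 1.98 at 3 weeks and at -6.89, -6.91 and -7.19 at 6 weeks, a change of -9.47 ± 0.33 (adjusted p = 1.34e-08), at least 257-fold lower, and -5.53 after normexp background correction. No 6-week mouse was well above background for it, and the 3-week mice lay close together. The cytochromes P450 Cyp3a44, Cyp2b13 and Cyp2b9 changed by -6.28 ± 0.85, -5.03 ± 0.47 and -3.77 ± 0.51. Without 3-week mouse 3 and without 3-week mouse 2 the change of Cyp3a44 was -7.43 and -5.49, and that of Cyp2b13 was -5.73 and -4.44. Fmo2, a flavin-containing monooxygenase, fell by 1.16 on the log2 scale.

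Transporters and secreted proteins of the female pattern were lower as well. The organic anion transporter relatives Slc22a27 and Slc22a26 changed by -8.10 ± 0.77 and -5.57 ± 0.75, and were well above background in 1 and 2 of the 3 mice at 6 weeks. Slc22a26 had stood at 2.19, 2.17 and 1.49 at 3 weeks and reached -4.85, -2.43 and -3.59 at 6 weeks, with its change at -4.95 without 6-week mouse 1 and -6.17 without 6-week mouse 2. That of Slc22a27 was -8.79 without 6-week mouse 2. The plasma protein gene A1bg, whose promoter window is printed above with that of Slc22a26, went from -0.09, 0.52 and -2.62 to -7.07, -7.67 and -7.45, at least 27.9-fold lower. Its change of -6.66 was -2.78 after normexp background correction, -7.61 without 3-week mouse 3 and -6.04 without 3-week mouse 2. Atp6v0d2, Abcd2, Tox and Ntrk2 changed by -1.85, -1.66, -1.02 and -0.74. The ages overlapped for Tox, whose call was lost without 3-week mouse 1 (-0.85, adjusted p = 0.0655), 3-week mouse 2 (-0.84, adjusted p = 0.0641) or 6-week mouse 1 (-0.81, adjusted p = 0.0646), and the 3 probes of Ntrk2 ran from -2.71 to 0.34.

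Not every female-biased gene fell. The steroid hydroxylase Cyp17a1 stood at 4.57, 4.68 and 4.09 at 3 weeks and at 4.38, 4.25 and 4.63 at 6 weeks. Cyp2a4, a testosterone hydroxylase, differed by 0.41 (adjusted p = 0.154), Cyp3a16 by 0.05, Cyp3a41b by -0.24 and the prolactin receptor Prlr by 0.49, all short of the threshold. Estrogen sulfotransferase Sult1e1 differed by -1.66 (adjusted p = 0.0836), and by -2.33 (adjusted p = 0.0204) without 3-week mouse 3. Cux2, a female-biased transcription factor, overlapped widely between ages at -1.67, -1.93 and -5.10 against -5.41, -1.72 and -2.15. Nipal1 and Cd36 differed by -0.43 and -0.35, and without 3-week mouse 3 Nipal1 differed by -1.15 (adjusted p = 0.00452).

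The 3-week mice were not alike in either list, and mouse 3 stood out in both. Averaged over the 27 male-biased genes, 3-week mice 1, 2 and 3 had mean log2 levels of 2.08, 1.24 and 3.18, and the 6-week mice had 4.77, 4.55 and 4.78. The same averages over the 25 female-biased genes came to 2.38, 2.41 and 1.33 for the younger mice and to -1.86, -1.26 and -1.58 for the older ones. Mouse 3 was thus the highest of the 3-week mice on the male-biased list and the lowest on the female-biased list, the side of the 6-week mice in both. Gene by gene, mouse 3 was the highest of the 3 for 25 of 27 male-biased genes and the lowest for 18 of 25 female-biased genes, while mouse 2 was the lowest for 22 of 27 male-biased genes. The median SD among mice for the male-biased genes was 0.819 at 3 weeks and 0.248 at 6 weeks, and the SD was larger at 3 weeks for 21 of 27. For the female-biased genes it was 0.613 and 0.302.

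Litter is read here from titles only. By that reading mouse 3 belonged to another litter than mice 1 and 2, one that also held control mouse 2 and Cre mouse 2 of 1 week. Cre mice 2 and 3 of 3 weeks, in the same litter by title as control mouse 3, had male-biased means of 1.15 and 0.05. Their female-biased means were 2.17 and 2.20. Cre mouse 1, by title from the litter of control mice 1 and 2, had 0.28 and 2.18. The high male-biased mean was therefore measured in 1 of the 3 mice of that age and litter, the other two differing in genotype, and the part of litter was not tested. Without 3-week mouse 3, 22 male-biased genes were called with a median change of 3.06, and 18 female-biased genes with a median of -1.68. Without 3-week mouse 2, 16 male-biased genes were called with a median of 1.81.

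**Figure D3:**
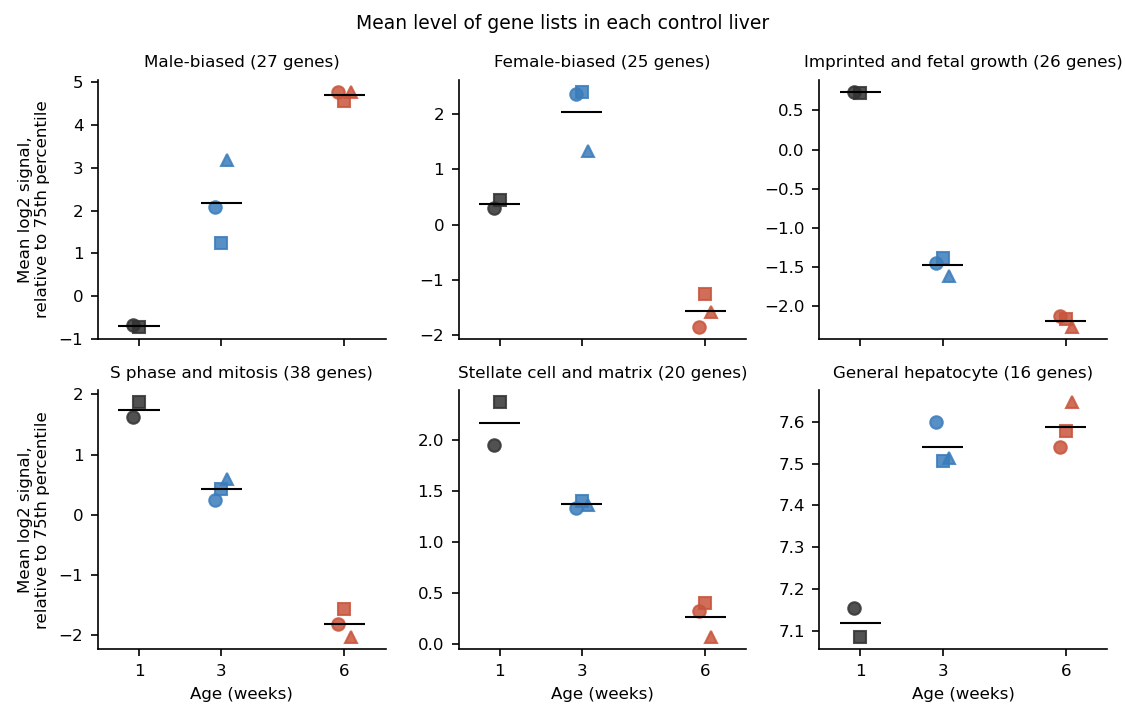
Mean log2 level of 6 gene lists (vertical axis, relative to the array's 75th percentile) in each control mouse at 1, 3 and 6 weeks, with bars at group means and circles, squares and triangles for mice 1, 2 and 3. The male-biased mean rises from 1.24–3.18 at 3 weeks to 4.55–4.78 at 6 weeks. Over the same interval the female-biased mean falls from 1.33–2.41 to between -1.86 and -1.26. The general hepatocyte list stays level from 3 to 6 weeks (7.51–7.60 and 7.54–7.65), above the 7.16 and 7.09 of the 1-week mice.

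The 2 control mice at 1 week had male-biased means of -0.68 and -0.73 and female-biased means of 0.30 and 0.45. From 1 to 3 weeks 17 male-biased genes rose and 1 fell, while 49.4% of all tested genes were called, 27.4% higher and 22% lower, and 11 female-biased genes rose and 2 fell. The group means of A1bg at the 3 ages in turn were -7.82, -0.73 and -7.40, so its highest mean was at 3 weeks. Those of Cyp4a12b were -3.09, -1.34 and 5.42. The comparisons of 3 with 1 week and 6 with 3 weeks share the 3-week arrays, and their values are given side by side only.

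Growth hormone and steroid signalling genes changed little as a group. Of 22 measured members, 2 rose and 1 fell, 13.6% called beside 22.1% of all tested genes, and the median change was 0.00. The exception in size was Srd5a1, the steroid 5-alpha reductase that converts testosterone to dihydrotestosterone, which went from 1.92, 1.72 and 3.14 to 5.40, 5.35 and 5.05, a rise of 3.01 ± 0.29 (adjusted p = 2.71e-05), or 8.04-fold. Its 3-week mouse 3 was again the one nearest to the 6-week mice. Srd5a2, the other 5-alpha reductase measured, differed by 0.48 (adjusted p = 0.112).

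Few receptors and transducers were called. The growth hormone receptor Ghr stood at 4.71, 4.84 and 4.81 at 3 weeks and 5.08, 5.19 and 5.06 at 6 weeks, a difference of 0.32 (adjusted p = 0.166) although the ages did not overlap. Stat5b, the main transducer of the male growth hormone pulse, differed by 0.02 and the estrogen receptor Esr1 by -0.74, neither past the threshold. Stat5a fell by 0.54 ± 0.13 (adjusted p = 0.0108). The receptor kinase Jak2 rose by 0.24 ± 0.08 (adjusted p = 0.0457), and its call was lost in 12 of 17 alternatives, including without 3-week mouse 1 (0.19, adjusted p = 0.157), 3-week mouse 3 (0.23, adjusted p = 0.0977) or any of the 6-week mice (0.22 to 0.25, adjusted p = 0.0772 to 0.128). The feedback inhibitors Socs2 and Cish, which report recent growth hormone signalling, varied between mice of an age. Socs2 stood at 3.89, 2.51 and 2.17 against 1.63, 0.11 and 2.60, and Cish at 3.65, 2.21 and 0.79 against 2.94, 0.31 and 2.26. Their ages overlapped, and Socs2 passed the threshold in 2 of 17 alternatives, without 6-week mouse 3 (-1.99, adjusted p = 0.0384) and with array weights (-1.95, adjusted p = 0.0214).

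In the insulin-like growth factor axis 4 of 20 measured members fell and none rose, beside 12.4% of all tested genes called lower, and the median change was -0.37. Igf1, the growth hormone-dependent ligand that liver supplies to the circulation, stood at 6.76, 6.55 and 6.49 at 3 weeks and 6.37, 6.53 and 6.51 at 6 weeks, a difference of -0.13 ± 0.14 (adjusted p = 0.548). Its 4 probes ranged from -0.57 to -0.13, and from 1 to 3 weeks Igf1 had risen by 1.94. The fetal ligand Igf2 was low at both ages, at -2.94, -2.99 and -3.22 against -3.14, -2.94 and -2.95, after a mean of 3.98 at 1 week. The change of both ligands thus lay before 3 weeks.

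Among receptors and binding proteins, the receptor Igf1r went from -0.97, -0.82 and -1.30 to -1.75, -1.71 and -2.16, a change of -0.84 ± 0.18 (adjusted p = 0.00617), with the ages apart. Igfbp3, which carries IGF1 in plasma, fell by 1.11 ± 0.27 (adjusted p = 0.0108). Igfbp7 fell by 0.58 ± 0.11 (adjusted p = 0.0024). The binding protein protease Pappa2 fell by 2.17 ± 0.50 (adjusted p = 0.00852), at least 2.14-fold, to a level not well above background. Igfals, the subunit that stabilises circulating IGF1 complexes, differed by 0.56 ± 0.24 (adjusted p = 0.117) without overlap of the ages. The fasting-responsive Igfbp1 overlapped at 8.27, 8.80 and 6.60 against 5.76, 7.48 and 8.10, and Igfbp2 differed by 0.14. Igfbp6 differed by -1.58 (adjusted p = 0.0791), and by -2.18 (adjusted p = 0.0282) without 3-week mouse 2.

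Imprinted and fetal growth genes split into those already low at 3 weeks and those still falling. Of 26 measured members, 10 fell after 3 weeks and none rose, beside 12.4% of all tested genes called lower. The median change was -0.26. In the 1 to 3 week comparison 20 had fallen, beside 22% of all tested genes called lower, with a median of -1.89. Gpc3, a cell surface glypican that restrains growth, went from 0.49, 0.62 and -0.57 to -4.04, -4.84 and -5.00, a change of -4.81 ± 0.51 (adjusted p = 4.99e-05), or 28-fold. The maternally expressed RNA Meg3 went from -0.90, -0.80 and -0.53 to -2.35, -2.28 and -2.09, by -1.50 ± 0.21 (adjusted p = 0.000396). The imprinted cell cycle inhibitor Cdkn1c fell from 0.24, 0.91 and 0.35 to -1.22, -0.49 and -0.91, by 1.37 ± 0.29 (adjusted p = 0.0053). In each of these 3 genes no 6-week mouse reached the 3-week range.

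Further falls were called for the imprinted genes Mest (-2.11), Peg3 (-1.68), Grb10 (-1.65), Plagl1 (-1.27) and Sgce (-0.67), for the fetal RNA-binding protein gene Igf2bp3 (-2.02) and for the histone methyltransferase gene Ezh2 (-0.79 ± 0.12, adjusted p = 0.000783). Probes disagreed for Plagl1, from -1.28 to 0.44, and the other probes of Mest reached -0.31. The call of Sgce was lost without 6-week mouse 3 (-0.55, adjusted p = 0.0667). Genes at the floor of their decline included Igf2 and Dlk1, a paternally expressed membrane ligand, which averaged 3.01 at 1 week, -2.89 at 3 weeks and -3.12 at 6 weeks. Igf2bp1 was not well above background at either age. Lin28b differed by -0.68 (adjusted p = 0.227), and by -1.14 (adjusted p = 0.0327) without 3-week mouse 3. Peg10, Ndn, Zdbf2, Gnas, Hmga1, Hmga2, Igf2bp2, Sox4, E2f3, E2f5, Trim71 and Mycn were not called, with differences from -0.29 to 1.01.

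**Figure D4:**
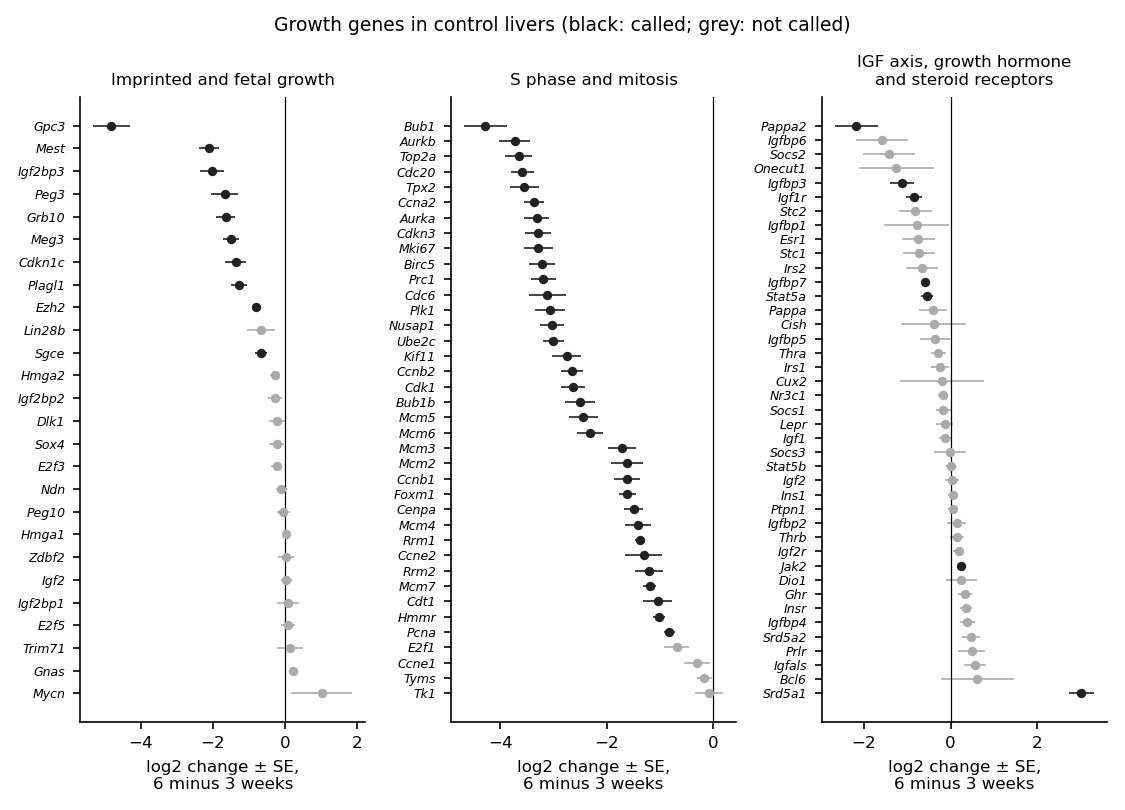
Log2 change from 3 to 6 weeks with its SE for genes of the imprinted and fetal growth network, of S phase and mitosis, and of the IGF axis with growth hormone and steroid signalling (horizontal axis, 6 weeks minus 3 weeks), black where called and grey where not. The cell division panel lies to the left of 0 throughout, with 34 of 38 genes called, beside 22.1% of all tested genes. Most genes of the hormone panel lie close to 0.

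Genes of DNA replication and mitosis fell almost without exception. Of 38 measured members, 34 fell and none rose, beside 12.4% of all tested genes called lower. All 38 had a lower mean at 6 weeks, and the ages did not overlap for 35, beside 42.2% of all tested genes. The median change was -2.47 on the log2 scale, at -2.23 on the first slide and -2.55 on the second, and was -1.34 after normexp background correction.

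The steepest falls were among mitotic regulators. The proliferation marker Mki67 went from 1.82, 2.19 and 1.83 to -1.48, -0.93 and -1.59, a change of -3.28 ± 0.27 (adjusted p = 6.51e-06), or 9.73-fold. Cdc20, the activator of the anaphase-promoting complex whose promoter is printed above, went from 1.71, 1.76 and 2.05 to -1.64, -1.44 and -2.15, by -3.58 ± 0.22 (adjusted p = 8.35e-07). Ccnb2, a mitotic cyclin also printed above, went from 1.73, 2.11 and 2.05 to -0.95, -0.38 and -0.73, by -2.65 ± 0.20 (adjusted p = 4.18e-06). For all of these the ages were separated by more than the range within either age. Top2a, which untangles replicated DNA, changed by -3.65 ± 0.25, and the S and G2 phase cyclin Ccna2 by -3.37 ± 0.19. The spindle checkpoint kinase Bub1 and the chromosomal passenger kinase Aurkb dropped out of the measurable range and were at least 9.46-fold and 5.32-fold lower. Normexp background correction, which adds an offset of 50 to every signal, gave -1.31 and -0.85 for this pair. Cdk1, the kinase that drives mitosis, fell by 2.63, and Foxm1, the transcription factor of the late cell cycle, by 1.61.

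Most replication genes fell as well. The helicase subunits Mcm5 and Mcm6 fell by 2.44 and 2.32, Mcm3, Mcm2 and Mcm4 by 1.72, 1.62 and 1.42, and Mcm7 by 1.19. The sliding clamp Pcna went from 3.51, 3.77 and 3.72 to 2.88, 2.91 and 2.74, by -0.82 ± 0.10 (adjusted p = 0.000145). The ribonucleotide reductase genes Rrm1 and Rrm2 fell by 1.37 and 1.21. Mcm10, named after its values were seen and outside the list, rose by 1.30 ± 0.29 (adjusted p = 0.00767). The 4 uncalled members act around S phase entry or nucleotide supply. E2f1 differed by -0.68 (adjusted p = 0.0587), and passed without 3-week mouse 1 (-0.90, adjusted p = 0.029) or 6-week mouse 2 (-0.84, adjusted p = 0.0459). Ccne1, Tyms and Tk1 differed by -0.30, -0.17 and -0.08. Calls were lost for Ccne2 (-1.30) without 3-week mouse 2 (-1.21, adjusted p = 0.0633), 3-week mouse 3 (-1.06, adjusted p = 0.0673) or 6-week mouse 1 (-0.85, adjusted p = 0.0592), and for Cdt1 (-1.04) without mouse 3 of 3 weeks (-0.76, adjusted p = 0.064) or of 6 weeks (-0.91, adjusted p = 0.0667).

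The order of the mice on the division list was not that of the sex-biased lists. At 3 weeks mouse 1 was the lowest of the 3 for 25 of 38 genes, and mouse 3 the highest for 17. At 6 weeks mouse 3 was the lowest for 30 and mouse 2 the highest for 25. Averaged over the list, the 3-week mice stood at 0.24, 0.43 and 0.59 and the 6-week mice at -1.81, -1.56 and -2.03, after 1.62 and 1.87 in the 1-week mice. The list therefore fell in both intervals, with 36 genes called lower from 1 to 3 weeks, beside 22% of all tested genes.

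Cell cycle controllers moved less uniformly, with 1 of 19 higher, 7 lower and a median change of -0.26. Called shares of all tested genes were 9.75% higher and 12.4% lower. The cytokinesis genes Ect2, Anln and Racgap1 fell, with changes of -2.49, -2.32 and -1.74, and so did the atypical E2F gene E2f8 (-1.49). The retinoblastoma relative Rbl1 changed by -1.76. Cdkn1a, which encodes the inhibitor p21, went from 2.74, 1.98 and -0.06 to -2.98, -0.06 and -0.59, a change of -2.77 ± 0.87 (adjusted p = 0.0384), with 3-week mouse 3 level with 6-week mouse 2. Its second probe changed by -0.27. The call was lost without 3-week mouse 1 (-2.17, adjusted p = 0.143), 3-week mouse 2 (-2.55, adjusted p = 0.108), 6-week mouse 1 (-1.88, adjusted p = 0.15) or 6-week mouse 3 (-3.07, adjusted p = 0.0555), and the change was -3.57 without 3-week mouse 3. Ccng1 was the member that rose, by 0.65 ± 0.11 (adjusted p = 0.00174). Ccnd1, the cyclin of growth factor response, differed by -0.88 (adjusted p = 0.19), and Cdkn1b, Rb1 and E2f7 by -0.06, 0.16 and 0.09. E2f7 rests on its brightest probe, and the mean of its probes gave -0.76 (adjusted p = 0.014).

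Fetal hepatocyte genes were called in part after 3 weeks. Alpha-fetoprotein (Afp) averaged 8.93 at 1 week, and stood at -1.02, -0.80 and -0.30 at 3 weeks and -1.26, -1.45 and -1.65 at 6 weeks, a difference of -0.74 (adjusted p = 0.106). Of 12 measured genes 3 fell and 1 rose, 33.3% called beside 22.1% of all tested genes, with a median of -0.36. Lipoprotein lipase (Lpl), which suckling liver expresses, went from 4.56, 4.75 and 3.79 to 1.69, 1.32 and 1.33, a change of -2.92 ± 0.32 (adjusted p = 6.58e-05). The others that fell were Gpc3 and the pyruvate kinase Pkm (-0.52), and Zhx2, a repressor of Afp, rose by 1.10 (adjusted p = 0.0232). Pkm and Zhx2 lost their calls without 3-week mouse 1 (-0.49 and 0.90, adjusted p = 0.0924 and 0.0942), 3-week mouse 2 (-0.52 and 0.98, adjusted p = 0.0806 and 0.0811) or 6-week mouse 1 (-0.51 and 1.13, adjusted p = 0.0835 and 0.0539). Pkm also lost it without 6-week mouse 3 (-0.48, adjusted p = 0.0958) and Zhx2 without 6-week mouse 2 (0.91, adjusted p = 0.0877).

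Markers of non-hepatocyte cells moved beside these growth genes. Of 20 stellate cell and matrix genes 13 fell and none rose, beside 12.4% of all tested genes called lower, with a median of -1.02. Their summed linear level relative to the 75th percentile was 318–338 at 3 weeks and 138–169 at 6 weeks. The collagen gene Col3a1 went from 4.05, 3.82 and 4.03 to 1.45, 1.73 and 0.90, by -2.61 ± 0.42 (adjusted p = 0.000958). Sparc, a matrix glycoprotein, fell by 1.75 ± 0.20 (adjusted p = 7.66e-05), and Col5a1 and Col4a1 by 1.97 and 1.82. The stellate markers Lrat and Des and the contractile gene Acta2, all named after their values were seen, differed by -0.37, -0.34 and -0.24 and were not called. Of 13 endothelial markers 6 fell and none rose, beside the same 12.4% of all tested genes. These falls were led by Stab2 (-0.56), Emcn (-0.75), Oit3 (-0.38) and Egfl7 (-0.45), and the summed level went from 117–120 to 99.8–105. Oit3 and Egfl7 lost their calls without 3-week mouse 2 (-0.34 and -0.39, adjusted p = 0.0739 and 0.0806); Oit3 also without 6-week mouse 1 (adjusted p = 0.0679) or 3 (0.0837), and Egfl7 also without 3-week mouse 3 (0.0633) or 6-week mouse 2 (0.0697) or 3 (0.0677). The part of these cells in the fall of the division genes was not tested.

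Blood cell markers shifted in part. Of 15 erythroid genes 5 fell and 1 rose, while 12.4% of all tested genes were called lower and 9.75% higher. The carbonic anhydrase Car2 changed by -2.01 ± 0.19, and the haemoglobin chain Hba-a1 went from 8.49, 8.42 and 8.48 to 5.77, 6.72 and 6.99. The summed erythroid level went from 600–610 to 338–494, a sum that weighs bright genes such as Hba-a1 most. The median change of the list was -0.15, with 6 genes higher and 9 lower at 6 weeks. Epb42 was not well above background at either age, and Rhd and Gata1 were not at 6 weeks. Gata1 lost its call without 3-week mouse 1 (-1.70, adjusted p = 0.0618), 3-week mouse 3 (-1.73, adjusted p = 0.05) or 6-week mouse 1 (-1.78, adjusted p = 0.0528). Lyz2 was the 1 of 13 macrophage genes called, with a rise of 0.89. Of 15 lymphocyte genes Cd3e rose (0.51) and Ms4a1 and Cd79b fell by 1.00 and 0.80, and these falls lost their calls without 3-week mouse 1 (adjusted p = 0.0945 and 0.124), 3-week mouse 2 (0.0606 and 0.0546), 6-week mouse 1 (0.0841 and 0.105) or 6-week mouse 3 (0.0711 and 0.077). Of 11 antigen presentation genes none was called by limma. Among 12 granulocyte genes S100a9 was called lower and Elane higher, and the calls were lost in 8 and 10 of 17 alternatives (S100a9 without any 1 mouse but 6-week mouse 3, adjusted p = 0.0639 to 0.147, and Elane without any 1 mouse, 0.0775 to 0.112).

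Bile duct and surface markers were low or varied by mouse. Of 13 cholangiocyte genes Krt23 and Cd24a fell (-2.35 and -1.22) and Cftr rose (0.91), 23.1% called beside 22.1% of all tested genes. The call of Krt23 was lost without any 1 of the 6 mice (adjusted p = 0.0578 to 0.0898). Cd24a lost its call without 3-week mouse 1 (-1.19, adjusted p = 0.0713) or 3 (-1.04, adjusted p = 0.0818) and without 6-week mouse 1 (-1.23, adjusted p = 0.0619) or 3 (-1.09, adjusted p = 0.0827), and Cftr without 3-week mouse 2 (0.84, adjusted p = 0.0647) or 6-week mouse 3 (0.68, adjusted p = 0.0748). The mesothelial genes Msln and Wt1 fell by 2.52 and 1.97, and their list summed to 0.561–2.99 at 3 weeks and 0.163–0.584 at 6 weeks. Msln lost its call without 3-week mouse 1 (-1.85, adjusted p = 0.0605) or 6-week mouse 2 (-1.91, adjusted p = 0.0587), and was -3.14 without 3-week mouse 2. Wt1 lost its call without 3-week mouse 1 (-1.68, adjusted p = 0.102) or 3 (-1.90, adjusted p = 0.0673) and without 6-week mouse 2 (-1.42, adjusted p = 0.109) or 3 (-1.83, adjusted p = 0.0817), and was -2.65 without 6-week mouse 1.

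General hepatocyte genes were rarely called, at 6.25% beside 22.1% of all tested genes. Among 16 general hepatocyte genes Fgb, a fibrinogen chain, was the 1 called, with a change of -0.36 that lost its call without mice 1 or 2 of 3 weeks (adjusted p = 0.0614 and 0.0735) or mice 2 or 3 of 6 weeks (0.0612 and 0.0607), and the list median was 0.06. Bile acid synthesis genes rose, with 7 of 18 higher and none lower, beside 9.75% of all tested genes called higher. Cyp7a1, the rate-limiting enzyme of bile acid synthesis, went from 2.79, 2.68 and 2.35 to 4.27, 3.61 and 3.99, by 1.35 ± 0.32 (adjusted p = 0.0102). Cyp27a1, of the alternative pathway, rose by 0.98 ± 0.13 (adjusted p = 0.000265), the conjugating enzyme Baat by 0.86 and Hsd3b7 by 0.54.

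Of 22 genes of fasting and fat oxidation 4 fell and none rose, beside 12.4% of all tested genes called lower, all mice having gone without food for 6 hours. The fasting kinase Pdk4 went from 2.71, 2.89 and 1.38 to -1.06, -0.91 and -0.51, a change of -3.15 ± 0.33 (adjusted p = 4.63e-05). Fgf21, a hormone of fasting and of the suckling period, fell by 2.19 ± 0.58 (adjusted p = 0.0176), a call lost without mouse 1 of 3 weeks (-1.99, adjusted p = 0.0651) or mice 1 or 2 of 6 weeks (-2.01 and -1.90, adjusted p = 0.0609 and 0.0656). Bdh1 and Acadl fell by 0.47 and 0.46 and lost their calls in 7 and 11 of 17 alternatives, among them without any 1 mouse but 6-week mouse 2 for Bdh1 (adjusted p = 0.0618 to 0.107) and but 3-week mouse 3 for Acadl (0.0642 to 0.161). Of 24 xenobiotic genes 3 rose, Ugt2b5 (1.13), Aldh1a1 (1.22) and Ahr (0.60), and 2 fell, Cyp2b10 (-2.43) and Cyp2c55 (-1.30, named after its value was seen). The called share of that list was 20.8%, beside 22.1% of all tested genes. Cyp2b10 changed by -3.06 without 6-week mouse 2, and Ahr lost its call in 9 of 17 alternatives, among them without 3-week mouse 1 (0.45) or 3 (0.66) or 6-week mouse 1 (0.66) or 2 (0.44).

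Other hepatocyte programmes had at most 2 called members each, 5.0 to 12.5% of a list beside 22.1% of all tested genes. Fatty acid synthesis had 1 of 18 (Me1, 0.82), cholesterol synthesis 1 of 20 (Lss, -1.05), periportal genes 1 of 15 (Cyp2f2, 0.96) and pericentral genes 2 of 16. Notum rose by 0.46 and Lect2 fell by 1.00. The call of Cyp2f2 was lost without any 1 mouse (adjusted p = 0.0726 to 0.0878), that of Me1 without any 1 mouse but 6-week mouse 3 (0.0817 to 0.159), and that of Lss without 3-week mouse 2 (-1.17) or 3 (-0.78) or 6-week mouse 2 (-1.09) or 3 (-0.72). That of Notum was lost without 3-week mouse 2 (0.42, adjusted p = 0.0567).

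The 10 largest rises outside clone-type names held, beside Cyp4a12b, Cyp4a12a and Cyp7b1, genes better known from other tissues. Pax2, a kidney transcription factor, went from 1.06, -1.87 and 4.50 to 8.84, 8.65 and 9.38 by its brighter probe, a rise of 7.73 ± 1.15 (adjusted p = 0.0006), while its other probe changed by 0.17. The 3-week mice differed widely, with mouse 3 high and mouse 2 low, and the rise was 6.18 without mouse 2 and 9.36 without mouse 3. The N-acetyltransferase relative Nat8f5 rose by 6.71 ± 0.68, and by 7.49 without 3-week mouse 3. Further rises were seen for Olfr677 (5.01), Myh2 (4.93), Atp12a (4.79), Cryaa (4.77) and Zar1 (4.70, at least 5.73-fold). Atp12a rose by 5.38 without 3-week mouse 3. The 10 largest falls included 5 Sult2a genes, Hao2, Slc22a27, Slc22a29 (-7.69) and Hsd3b1 (-9.92). Hsd3b1, which oxidises 3-beta-hydroxysteroids, stood at 3.30, 2.55 and 1.88 at 3 weeks and was at least 277-fold lower at 6 weeks, opposite to its relative Hsd3b5.

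Close relatives within several families, chosen after their values were seen, moved mostly in 1 direction. Of the measured genes, 6 of 9 Cyp2d, 6 of 7 Ugt2b, 3 of 5 Nat8f and 3 of 7 Cyp4a genes rose and none fell, and 3 of 5 Cyp2b genes fell and none rose. Called shares of all tested genes were 9.75% higher and 12.4% lower. The Slc22a26 to Slc22a30 group had 3 lower and 1 higher of 4. Among collagens I to VI, 12 of 18 genes fell and 1 rose. None of 7 Gstm genes was called.

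Cre-carrying livers, compared over the same interval, shared most of these directions. Of 17313 genes 4674 (27%) were called in them, and 2511 genes were called in the same direction in both genotypes, 65.5% of those called in controls and 53.7% of those called in Cre livers. For 3 genes the called directions were opposite, and 97.1% of the genes called in controls had the same sign in Cre livers. Across genes the log2 changes correlated with r = 0.83, given as a description, since genes are not independent and the genotypes share litters and slides but no arrays. In Cre livers 22 male-biased genes rose (median 3.11), against 14.1% of all tested genes called higher and 12.9% lower, 17 female-biased genes fell (median -1.57) and 31 division genes fell (median -1.34). The control medians were 2.52, -1.66 and -2.47.

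The difference between the 2 age changes was called for 1 of 17313 genes (0.00578%), with 1442 genes at an unadjusted p under 0.05. That gene was Kif2c, a microtubule depolymerase of mitosis. In controls it went from -3.31, -3.03 and -3.15 to -7.15, -6.79 and -7.39, a change of -3.95 ± 0.19 and at least 5.18-fold. That change was -2.04 in the authors' matrix and -0.81 after normexp background correction. In Cre livers it went from -4.39, -4.14 and -4.02 to -5.77, -6.32 and -5.55, a change of -1.70. The difference was 2.25 (adjusted p = 0.0326), and the 6-week controls were not well above background, so their level is only bounded. None of the 38 listed division genes, which do not hold Kif2c, and none the male-biased or female-biased genes was called for this difference. The next genes by p were Gnat2 (1.66, adjusted p = 0.0892), Aldh1a7 (1.90), Parpbp (2.49) and Cdca2 (1.30) among those with a more positive change in Cre livers, and Prdm6 (-1.42), Fos (-2.17), Adam18 (-0.61), Rnf224 (-0.57) and Vipr2 (-1.61) among those with a more negative one. Prdm6 and Vipr2 were not well above background in controls at either age.

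**Figure D5:**
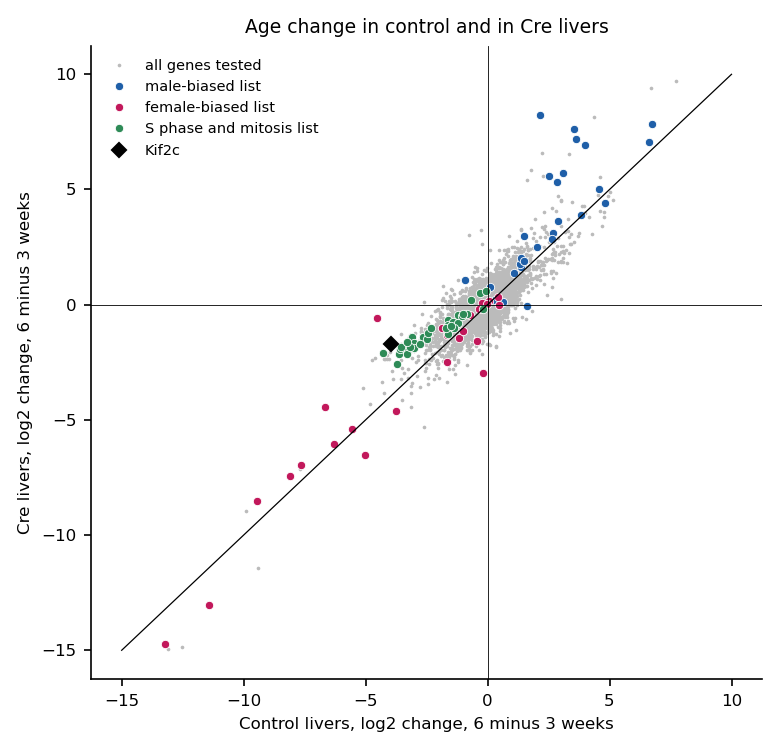
Log2 change from 3 to 6 weeks in control livers (horizontal axis) against the same change in Cre-carrying livers (vertical axis), 1 point per tested gene, with the listed groups coloured, a line of equality and Kif2c as a diamond. Male-biased genes lie in the upper right and female-biased genes in the lower left, and Kif2c lies at -3.95 and -1.70.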

How the data were processed

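RNA from each liver was labelled with Cy3 and hybridised to an Agilent array of 62976 features, per the labels' protocols. The deposited Feature Extraction files give fluorescence intensity per spot, per the file headers, and the processed signal was already background-subtracted by the authors' scanner software. The authors' deposited series matrix gives log2 values made in a way not given in the sources used here (column medians 7.703–7.902, r with the own array 0.9935–0.9981).

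Here, log2 processed signal minus each array's 75th percentile over non-control spots was used, control spots and outlier flags were left out and spots of a probe averaged. Of 55681 probes, 26582 were named through their accession in RefSeq's GRCm38.p6 table (20145 genes). Probes well above background on every array of at least 1 group were kept, the brightest per gene. All 16 arrays entered a fit with 1 mean per group (limma 3.58.1 in R 4.3.3, two-sided, 10 residual degrees of freedom), called at adjusted p under 0.05. Of the tested genes 9 lacked a value on 1 of the 6 control arrays or more.

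The members and the 32 gene lists (533 of 554 genes tested) were chosen with earlier results of these data known. Named genes are the 10 largest rises and 10 largest falls among called genes whose ages do not overlap, clone-type names left out; any measured member of the 8 main lists; of each other list the called members, at most 4 with the smallest p, or else 2; the 5 smallest p in each direction for the difference of age changes; and Cdh1. Some members are counted in their lists but are not reported here. Mouse numbers only name mice. The alternatives were other scalings, background correction on median intensities, dim-probe filters, probe choice, slide and litter blocks, array weights and leaving out each mouse. The fit was tested on simulated data.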

Additional observations from a re-analysis of the deposited data

Results flagged for a closer look

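Kif2c was singled out because its change from 3 to 6 weeks differed between control and Cre-carrying livers by the test of the difference itself, by 2.25 on the log2 scale (limma, Benjamini-Hochberg adjusted p = 0.0326). In each genotype all 3 of the 6-week values lay below all 3 of the 3-week values, and the fall was the deeper one in controls (-3.95 against -1.70). The control change was -0.81 after normexp background correction and -2.04 in the authors' matrix, with the call of this control change kept in both. The difference between genotypes was not called in the authors' matrix. Nor was it called with quantile normalization, no dim-probe filter, the mean of probes or all probes, where 0 genes passed. The second probe of Kif2c changed by -2.96 in controls. Without single control mice the count of genes called for this difference ran from 0 to 6.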

How the results depend on the processing

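All named results were recomputed under 18 alternatives. The number of called genes was 7551 (3697 higher, 3854 lower) over all probes, named or not, and otherwise 3136 to 5316. It was 2577 to 3417 without single mice (1112 to 1521 higher, 1465 to 1896 lower), and 3424 with litter as a random block. The share of calls that were higher was 44.1%, and 52.0% after normexp background correction. The difference of age changes was called for 0 genes with quantile normalization, the authors' matrix, no dim-probe filter, the mean of probes or all probes, for 2 with the litter block and for 0 to 6 without single mice. The female-biased list had 9 lower genes when only probes well above background on all 6 control arrays were kept, since silent genes leave the test. The growth hormone and steroid list had 1 higher gene under array median scaling, quantile normalization, the authors' matrix, no filter, the 6 control arrays alone, and the slide and litter blocks, and 1 to 2 without single mice, Jak2 being lost. E2f7 was at -0.76 with the mean of probes. Of 175 called named genes 126 kept their call and direction under all 17 alternatives that test named genes, 49 lost the call under some and 0 changed direction. Of 92 uncalled ones, 15 were called under some. No paired analysis was possible because the labels carry no replicate numbers shared by the ages, and the series' design text says that mice were not paired. A level near background is only bounded, and 3 mice per age limit precision.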

Other observations

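Some acute phase and clock genes were called, at shares not far from the 22.1% of all tested genes. Of 21 acute phase and iron genes 4 rose and 2 fell, 28.6% of them called, with a list median of 0.22. The orosomucoids Orm1 and Orm2 rose by 2.64 ± 0.39 (limma, Benjamini-Hochberg adjusted p = 0.000619) and 2.79 ± 0.41, while Id1 and Smad7, targets of BMP signalling in iron sensing, fell by 1.55 and 0.78. Saa1 and Saa2, named after their values were seen, were at 3.23, 2.96 and 3.28 and at 2.71, 2.41 and 2.75 in the 3-week mice. At 6 weeks they were at 4.78, 5.32 and 8.40 and at 4.47, 5.19 and 8.40, so that 6-week mouse 3 stood above the other two.

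Of 17 clock genes 3 rose and 1 fell, 23.5% called beside 22.1% of all tested genes, with a list median of 0.02. The clock output factor Dbp went from 3.07, 3.50 and 4.37 to 5.70, 5.11 and 4.67, Ciart rose by 1.40, Nr1d1 by 1.97 and Cry1 fell by 1.50. The rise of Nr1d1 was 1.24 without 6-week mouse 1 (adjusted p = 0.114), and its call was also lost without 3-week mouse 1 (adjusted p = 0.0956) or 2 (0.0873). Of 15 immediate early genes Zfp36 and Junb rose (0.63 and 0.84) and Gadd45b and Klf6 fell (-1.72 and -0.60). The called share of that list was 26.7%, beside the same 22.1%. Zfp36 lost its call without 3-week mouse 3 or 6-week mouse 2 or 3 (adjusted p = 0.0534 to 0.0637), Junb without 3-week mouse 1 or 2 or 6-week mouse 1 or 3 (0.0587 to 0.162), and Klf6 without 3-week mouse 2 (0.054). Of 16 interferon genes Oasl1 and Irf7 rose (1.03 and 1.04), the latter losing its call in 10 of 17 alternatives, among them without any 1 mouse but 3-week mouse 3 (adjusted p = 0.0755 to 0.132). The pancreatic enzyme genes Ctrb1 and Clps rose by 1.00 and 0.46 among 8 measured, and of 5 adipocyte genes Cfd rose (2.02) and Retn fell (-0.45). Cfd lost its call without 3-week mouse 2 (1.46, adjusted p = 0.0955) or 6-week mouse 1 (0.0532) or 2 (0.0755), and Retn without 3-week mouse 1 (0.102) or 2 (0.0886) or 6-week mouse 3 (0.122). Of 5 skeletal muscle genes Acta1 fell by 1.08, a call lost without any 1 mouse but 6-week mouse 2 (adjusted p = 0.0502 to 0.123). Of 460 measured odorant receptor genes 54 rose and 6 fell, against 9.75% and 12.4% of all tested genes.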
